A study of Mus musculus with 9 samples.

Results

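Guidance genes code for the ligands and receptors by which migrating cells and growing axons read their surroundings. Transcripts of 42 such genes were examined in cells sorted from E10.5 mouse forelimbs. They were taken by name from the Eph, ephrin, semaphorin, plexin, neuropilin, Slit, Robo, netrin and FLRT families. A gene was measured by its probe set (the group of array probes that reports 1 transcript) with exactly 1 gene symbol and the highest mean over 9 arrays, which gave 41 genes of 18193 in all. Ephb2 had no such probe set and was not analysed here. The 3 groups had 3 Affymetrix arrays each. PAX3-FKHR GFP+ stands for the GFP+ fraction of buds with the genotype Pax3PAX3-FKHR/GFP, control GFP+ for that of Pax3GFP/+ buds, and GFP- for cells without the reporter signal. In all GFP+ cells 1 Pax3 allele carries GFP, and the other is either intact or replaced by PAX3-FKHR, which joins the DNA binding domains of PAX3 to the activation domain of the forkhead factor FKHR. The cross brought in PGK-Cre, a transgene active throughout the embryo, to switch on the fusion allele, and buds of many embryos were pooled before the sort. The genotype behind the GFP- sort is not in the labels. The study describes its GFP+ to GFP- comparison as made within Pax3GFP/+ embryos, while its list of hybridized groups names Pax3+/+ as the further one.

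Eph receptors are tyrosine kinases bound by ephrins on neighbouring cells, and contact often makes cells repel each other. Ephrin-A ligands are held in the membrane by a lipid anchor, while ephrin-B ligands span it and can signal back into their own cell. Secreted semaphorins act through plexins with neuropilins as co-receptors, Slits act through Robo receptors, and netrin-1 acts through Dcc and the Unc5 receptors. Muscle progenitors that leave the somite for the limb bud move through mesenchyme that makes several of these cues, and in the chick ephrin-A5 and Epha4 are known to shape their paths.

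Values are log2 values, so that a difference of 1 is a 2-fold change, and each value belongs to its own probe set, so that levels are compared between groups and not between genes. To be called, a gene needed a log2 fold change of 0.5 or more in size and an adjusted p (Benjamini-Hochberg) under 0.05 in a limma fit over all 45037 probe sets. The smallest two-sided exact permutation p that 3 arrays against 3 allow is 0.1. The sort of control GFP+ cells can be read from Pax3 itself, whose log2 value there was 9.92, 8.94 and 10.22. In GFP- cells Pax3 was at 5.17, 5.14 and 4.77, and in PAX3-FKHR GFP+ cells at 7.15, 6.83 and 7.33. The paper states that Pax3PAX3-FKHR/GFP embryos do not transcribe the mouse gene, so Pax3 cannot measure the sort of that group. Of 12 myogenic progenitor markers 10 were measured, and all 10 were called higher in control GFP+ than in GFP- cells. Of 13 limb mesenchyme markers, 11 were called lower. The 10 progenitor markers, Pax3 included, had mean log2 levels of 8.88 to 9.13 on the PAX3-FKHR GFP+ arrays. These levels were 8.62 to 8.98 on the control GFP+ arrays and 4.86 to 5.25 on the GFP- arrays. Control GFP+ replicate 3 stood apart, with a quality weight of 0.236 against 0.604 to 2.69 on the other arrays. A lower value may come from fewer cells of a type or from less RNA per cell, which these arrays cannot tell apart.

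With PAX3-FKHR, 1 guidance gene was called higher, the receptor gene Epha7, and 1 lower, the adhesion gene Flrt3, while 39 of 41 did not pass the test. Over all genes 0.61% were called higher and 0.203% lower. The arrays of the 2 groups did not overlap for 16 of the 41 genes, 8 in each direction, against 14.3% of all genes. The median log2 fold change was -0.06 over the guidance genes and -0.03 over all genes. Of the 41 genes, 14 had an unadjusted p under 0.05, as had 1522 of all 18193. Calls made up 4.88% of the guidance genes, which were chosen with earlier results of these data known, against 0.813% of all genes. The PAX3-FKHR comparison thus holds few calls in number, and most of the genes described from it below are given as values. The calls also depend on the test. By a local pooled error test, the kind the study used, neither Epha7 nor Flrt3 was called on its brightest probe set (adjusted p = 0.0557 and 0.165). By the same test Epha3 and Sema3c were called lower on theirs (adjusted p = 0.00253 and 0.00186). On dimmer probe sets the local pooled error test did call Epha7 higher, at 1.28 (adjusted p = 0.00379) and 0.95 (adjusted p = 0.0247). Flrt3 was not called by this test on its other probe set either (adjusted p = 0.598). In this comparison 11 of 12 muscle differentiation markers lay above 0, 1 of them called, and their mean log2 level was 7.95 to 8.54 in PAX3-FKHR GFP+ cells against 6.84 to 7.83 in control GFP+ cells. The part of this shift in the guidance gene values was not tested.

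Because the fusion carries the DNA binding domains of PAX3, the 250 bases before the start of the called genes are shown from RefSeq on build GRCm38.p6. Capitals mark TAAT or ATTA, the core bound by homeodomains, which is the only one of the searched motifs found in either window.
Epha7 (chr4:28812895-28813144, plus strand): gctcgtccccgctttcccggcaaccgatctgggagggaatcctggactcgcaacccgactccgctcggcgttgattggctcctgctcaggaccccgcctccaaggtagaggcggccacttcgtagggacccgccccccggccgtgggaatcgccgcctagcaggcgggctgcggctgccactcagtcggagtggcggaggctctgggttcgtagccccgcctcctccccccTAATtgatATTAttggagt
Flrt3 (chr2:140671477-140671726, minus strand): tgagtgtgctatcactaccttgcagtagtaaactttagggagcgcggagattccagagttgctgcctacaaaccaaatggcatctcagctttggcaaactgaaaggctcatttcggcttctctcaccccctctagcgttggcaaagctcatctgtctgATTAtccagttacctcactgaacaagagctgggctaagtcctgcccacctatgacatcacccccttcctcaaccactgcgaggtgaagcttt
The Epha7 window shown, the downstream one of 2 annotated starts, held 2 such cores and the Flrt3 window 1. The window of the other Epha7 start, which overlaps the one shown, held 1. Searched on both strands, TAAT occurred in 54.9% of 32851 promoter windows of this length. GTCAC, a core of paired domain sites, occurred in 39.8%, and TAAT followed after NN by ATTA, a pair of homeodomain cores that contains the first motif, in 0.384%. Of the 42 guidance genes 34 had at least 1 window, and TAAT lay in 20 of their 40 windows, GTCAC in 12 and the paired cores in 0. These matches describe letters in a window and are not binding sites.

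Among the A-class Eph receptors, Epha7 and Epha3 moved in opposite ways with PAX3-FKHR on their called probe sets. Epha7, a receptor for ephrin-A ligands, was at 9.04, 9.33 and 8.80 in PAX3-FKHR GFP+ cells, against 8.06, 8.17 and 7.69 in control GFP+ cells and 8.04, 8.14 and 8.39 in GFP- cells. All PAX3-FKHR arrays lay above all others, and the other groups overlapped. The log2 fold change was 1.08 with PAX3-FKHR (standard error 0.19, adjusted p = 0.0365), a fold of 2.12. Against GFP- cells Epha7 was higher by 0.87 with PAX3-FKHR (adjusted p = 0.0196), a call lost without replicate 1 or 2 of either group (adjusted p up to 0.0965). Epha7 has 4 probe sets, and with PAX3-FKHR it was also higher on the second brightest, by 1.28 (adjusted p = 0.00684), and on the third, by 1.09 (adjusted p = 0.0218), and was at 0.41 (adjusted p = 0.518) on a further one. The call on the second brightest stood whichever array was left out (adjusted p from 0.0198 to 0.0403). On the brightest probe set Epha7 was not called when any 1 of the 6 arrays was left out (adjusted p from 0.0541 to 0.167). It was not called with the replicate number as a block over all arrays (adjusted p = 0.0647), but was with this block on the 6 arrays compared (adjusted p = 0.0131).

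Epha3, which codes for a receptor that binds ephrin-A5, was at 7.36, 7.25 and 6.22 in PAX3-FKHR GFP+ cells, against 8.75, 8.54 and 8.03 in control GFP+ cells and 7.82, 7.93 and 7.82 in GFP- cells. The PAX3-FKHR arrays were the lowest and the control GFP+ arrays the highest, without overlap. On this brightest probe set the difference of -1.49 with PAX3-FKHR did not pass (log2 scale, standard error 0.29, adjusted p = 0.061). On its second brightest Epha3 fell by 1.38 on the log2 scale (standard error 0.25, adjusted p = 0.0465). With the replicate number as a block the brightest probe set passed, over all arrays (adjusted p = 0.0299) and on the 6 arrays compared (adjusted p = 0.00695), while the second passed only on the 6 (adjusted p = 0.0737 and 0.00504). The call on the second was lost without any 1 of these arrays except control GFP+ replicate 3 (adjusted p up to 0.183). Probe sets of Epha7 and Epha3 are among those the study itself picked on these arrays, so that their directions are not independent evidence.

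The other A-class receptors did not pass with PAX3-FKHR, but 2 of them separated GFP+ from GFP- cells. Epha4, a receptor for both ephrin classes that limb mesenchyme is known to express, was at 8.65, 8.47 and 8.08 in PAX3-FKHR GFP+ cells and 8.59, 7.85 and 8.13 in control GFP+ cells, against 10.25, 10.13 and 9.20 in GFP- cells. Every GFP- array lay above every GFP+ array. The log2 fold change was -1.67 in control GFP+ against GFP- cells (standard error 0.29, adjusted p = 0.00853) and -1.46 in PAX3-FKHR GFP+ against GFP- cells (adjusted p = 0.0136). Leaving out replicate 3 of the PAX3-FKHR cells or replicate 1 or 2 of the GFP- cells ended the second of these calls (adjusted p up to 0.0604).

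Epha5, another ephrin-A receptor gene, ran the other way. It was at 6.05, 6.27 and 6.28 in PAX3-FKHR GFP+ cells and 5.67, 5.55 and 5.77 in control GFP+ cells, against 4.63, 5.31 and 4.98 in GFP- cells. No group overlapped another on this brightest probe set. Epha5 was higher than in GFP- cells by 1.23 in PAX3-FKHR GFP+ cells (adjusted p = 0.00195) and by 0.69 in control GFP+ cells (adjusted p = 0.041), and the control GFP+ call was lost without any 1 array but GFP- replicate 2 (adjusted p up to 0.121). On its dimmer probe sets the GFP+ groups differed by -0.09, -0.01 and 0.02. Against GFP- cells the first of these was not called (0.06 with PAX3-FKHR and 0.15 in control GFP+ cells), while the others were called higher in both GFP+ groups. The GFP- values lie near the array medians and, like the dimmer probe sets, are not shown to be above background. Epha2, also of the A class, averaged 7.05 ± 0.13 (SD, n = 3 here and below) in PAX3-FKHR GFP+, 6.16 ± 0.63 in control GFP+ and 6.54 ± 0.12 in GFP- cells, and was not called in any comparison.

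**Figure D1:**
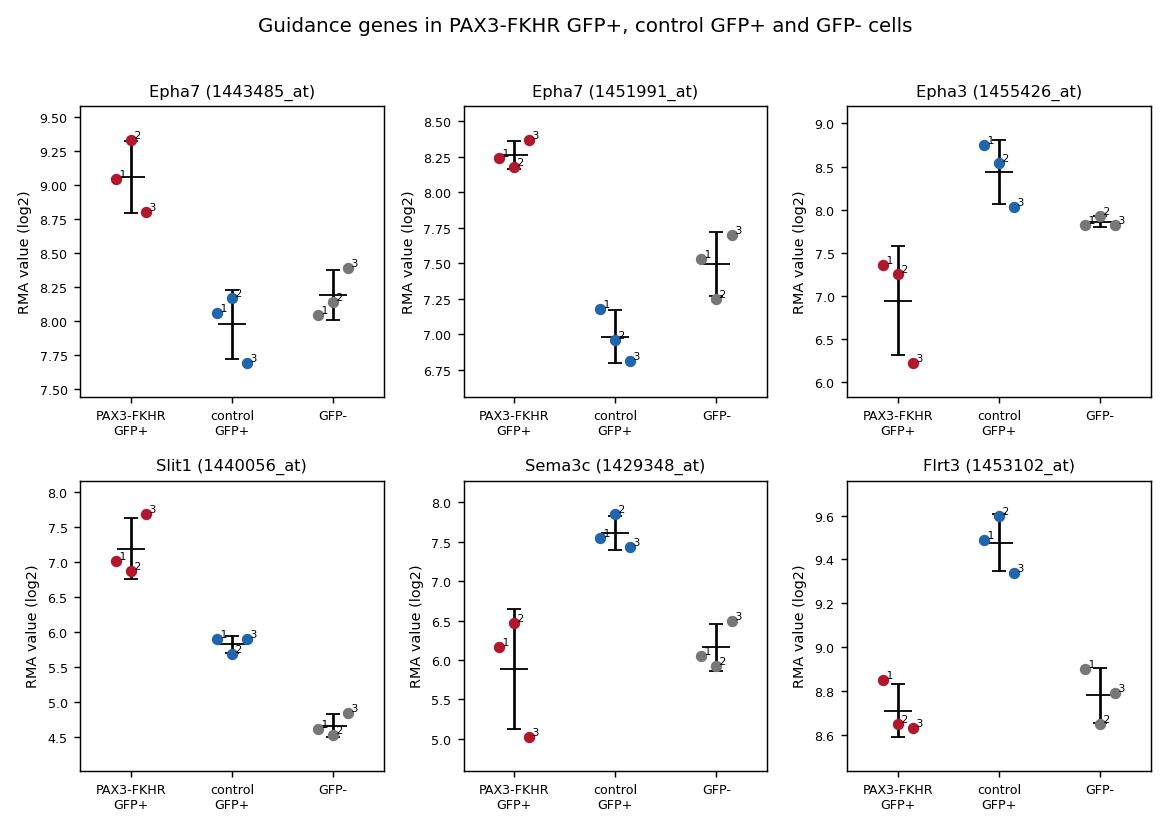
RMA values (log2, vertical axis, a scale of its own in each panel) of 6 probe sets in the 3 groups, where points are arrays with their replicate number and bars give the mean and SD over 3 arrays. For Epha7 the PAX3-FKHR GFP+ arrays sit above all others on both probe sets, and for Flrt3 the control GFP+ arrays sit above all others, between 9.34 and 9.60.

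Of the B-class receptor genes, Ephb1, Ephb3 and Ephb4 were not called in any comparison, while Ephb6, taken with the other guidance genes at the end, was called lower in PAX3-FKHR GFP+ than in GFP- cells. Ephb3 averaged 8.73 ± 0.01 in PAX3-FKHR GFP+, 9.02 ± 0.20 in control GFP+ and 9.19 ± 0.18 in GFP- cells. Ephb4, the receptor for ephrin-B2 on veins, averaged 7.14 ± 0.27 in PAX3-FKHR GFP+, 7.59 ± 0.13 in control GFP+ and 7.93 ± 0.63 in GFP- cells. Ephb1 averaged 5.30 ± 0.16 in PAX3-FKHR GFP+, 5.56 ± 0.12 in control GFP+ and 5.26 ± 0.26 in GFP- cells. The PAX3-FKHR arrays of Ephb3 and Ephb4 lay below all control GFP+ arrays, by log2 fold changes of -0.29 (adjusted p = 0.747) and -0.45 (adjusted p = 0.779).

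The ligands of these receptors showed no call with PAX3-FKHR, with log2 fold changes of the 5 ephrin-A genes between -0.38 and 0.04 and of the 3 ephrin-B genes between -0.21 and -0.09. The paper names ephrin-A5 as down and ephrin-B1 as up, and describes both as Pax3-regulated in somites and in limbs. Here Efna5 was at 0.04 (adjusted p = 0.967) and Efnb1 at -0.18 (adjusted p = 0.905). On the Efnb1 probe set that the study lists for somites it was 0.20 (adjusted p = 0.865). Against GFP- cells, 2 ephrin genes were lower in both GFP+ groups. Efnb3, which codes for ephrin-B3, was at 7.74, 7.54 and 7.54 in PAX3-FKHR GFP+ cells and 7.96, 7.51 and 7.99 in control GFP+ cells, against 9.36, 8.89 and 8.74 in GFP- cells. All GFP- arrays lay above both GFP+ groups. Efnb3 fell by 1.39 (adjusted p = 0.00198) and 1.18 (adjusted p = 0.00651) on the log2 scale in PAX3-FKHR GFP+ and in control GFP+ cells, calls that stood whichever array was left out.

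Efna4, an ephrin-A ligand, was at 6.27, 5.98 and 5.94 in PAX3-FKHR GFP+ cells and 6.05, 6.32 and 5.99 in control GFP+ cells, against 6.87, 6.82 and 6.66 in GFP- cells. It fell by 0.72 (adjusted p = 0.0165) in PAX3-FKHR GFP+ cells and by 0.66 (adjusted p = 0.0276) in control GFP+ cells, without overlap. The PAX3-FKHR GFP+ call of Efna4 was lost without replicate 2 or 3 of that group (adjusted p up to 0.0809) and the control GFP+ call without replicate 1 or 3 of that group (adjusted p up to 0.0927), and leaving out replicate 1 or 2 of the GFP- cells ended both. Efnb2, an arterial ligand, was at 9.24, 9.23 and 9.21 in PAX3-FKHR GFP+ cells and 9.34, 9.13 and 9.47 in control GFP+ cells, against 9.70, 9.68 and 10.18 in GFP- cells, whose arrays lay above all others. In PAX3-FKHR GFP+ cells it was lower than in GFP- cells by 0.63 (adjusted p = 0.0411), a call that ended without any 1 of those 6 arrays (adjusted p from 0.0589 to 0.138). In control GFP+ cells the difference of -0.54 from GFP- cells did not pass (adjusted p = 0.0772). The PAX3-FKHR GFP+ and control GFP+ cells differed by -0.09 (adjusted p = 0.926). Efnb1 averaged 8.17 ± 0.30 in PAX3-FKHR GFP+, 8.35 ± 0.22 in control GFP+ and 8.96 ± 0.55 in GFP- cells and was not called on its brightest probe set. On its dimmest probe set Efnb1 fell by 0.86 in PAX3-FKHR GFP+ (adjusted p = 0.0214) and by 0.88 in control GFP+ cells (adjusted p = 0.0214) relative to GFP- cells.

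Efna5, the ligand of Epha4 in the limb, showed close levels in all groups, with 8.63 ± 0.10 in PAX3-FKHR GFP+, 8.58 ± 0.06 in control GFP+ and 8.51 ± 0.24 in GFP- cells. Its log2 fold changes were 0.04, 0.08 and 0.12 with standard errors of 0.15 over the 3 comparisons. Efna1, Efna2 and Efna3 were not called in any comparison, and their log2 fold changes lay between -0.52 and 0.05. Of the ephrin genes and receptors above, Epha4, Efna4 and Efnb3 were called lower than in GFP- cells in both GFP+ groups on their brightest probe sets. On these, Efnb2 was called lower than in GFP- cells in PAX3-FKHR GFP+ cells, and the control GFP+ difference was close but did not pass. Epha5 was called higher than in GFP- cells in both GFP+ groups, and Epha7 in PAX3-FKHR GFP+ cells. Efnb1 was called lower on other probe sets.

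In control GFP+ against GFP- cells, limma called 6 guidance genes higher and 9 lower and left 26 uncalled. Over all genes 2.79% were called higher and 1.93% lower. Arrays did not overlap for 19 of the 41 guidance genes, against 24.1% of all genes, and the median log2 fold change was -0.14, against 0.08 over all genes. In PAX3-FKHR GFP+ against GFP- cells, 4 were called higher and 10 lower, against 3.9% and 2.79% of all genes. For 21 of the 41 the arrays did not overlap, against 27.9% of all genes. The comparisons share the GFP- arrays, and the first of them shares the control GFP+ arrays with the PAX3-FKHR comparison, so that likeness between them is no independent support. Limb mesenchyme markers moved with these groups, with mean log2 levels of 6.90 to 7.41 in PAX3-FKHR GFP+ and 7.22 to 7.32 in control GFP+ cells, against 8.94 to 9.24 in GFP- cells. Limb ectoderm markers were at 5.09 to 5.60 in PAX3-FKHR GFP+ and 4.72 to 5.36 in control GFP+ cells, against 5.68 to 6.99 in GFP- cells, with 4 of 11 called lower in control GFP+ cells. The part of these other cells in the lower guidance genes was not tested.

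**Figure D2:**
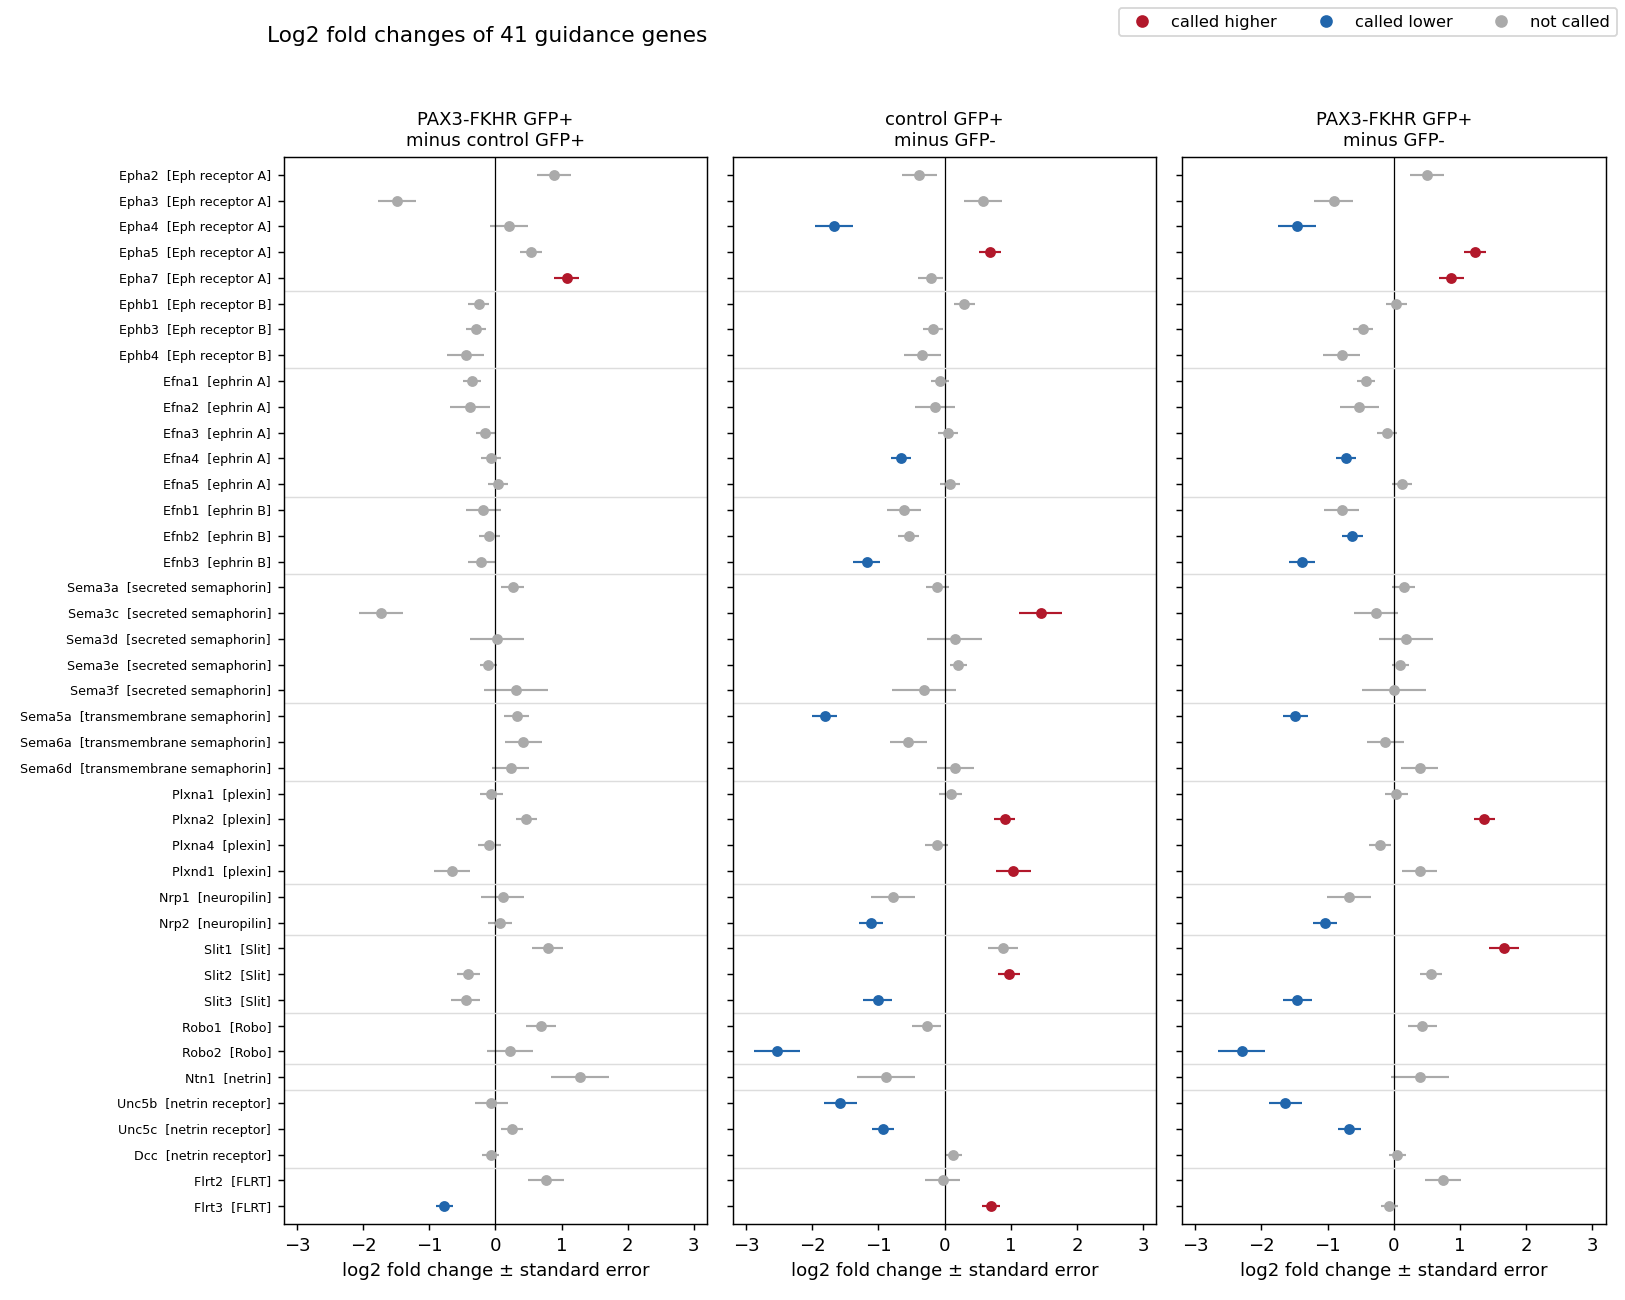
Log2 fold change (horizontal axis, with the standard error of the fit) of 41 guidance genes, ordered by family, in the 3 comparisons. Red and blue mark genes called higher and lower, 1 and 1 in the left panel, 6 and 9 in the middle panel and 4 and 10 in the right panel, and grey marks genes not called.

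Among the semaphorins, Sema3c was higher in control GFP+ cells than in GFP- cells, while Sema5a was lower in both GFP+ groups. Sema3c, a secreted cue known from the outflow tract of the heart, was at 6.17, 6.47 and 5.02 in PAX3-FKHR GFP+ cells, against 7.55, 7.85 and 7.43 in control GFP+ cells and 6.05, 5.93 and 6.50 in GFP- cells. Every control GFP+ array lay above every array of the other groups, and PAX3-FKHR GFP+ replicate 3 was the lowest of all. Sema3c was higher in control GFP+ than in GFP- cells by 1.45 (standard error 0.33, adjusted p = 0.0266), a call lost when replicate 1 or 2 of either group was left out (adjusted p up to 0.0934). With PAX3-FKHR it did not pass, at -1.73 on the log2 scale (standard error 0.33, adjusted p = 0.0551). With the replicate number as a block Sema3c passed on the 6 arrays compared (adjusted p = 0.0128) and not over all arrays (adjusted p = 0.0854). The study lists this probe set among those lower with PAX3-FKHR on these arrays, so its direction is not independent evidence.

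Sema5a, a semaphorin that spans the membrane, was at 7.42, 7.23 and 6.82 in PAX3-FKHR GFP+ cells and 6.97, 6.90 and 6.63 in control GFP+ cells, against 8.81, 8.42 and 8.72 in GFP- cells. The GFP- arrays lay above all GFP+ arrays. Sema5a fell by 1.49 in PAX3-FKHR GFP+ cells (adjusted p = 0.00104) and by 1.81 in control GFP+ cells (adjusted p = 5.23e-04), and stayed called whichever array was left out. The remaining secreted and membrane-bound semaphorins, Sema3a, Sema3d, Sema3e, Sema3f, Sema6a and Sema6d, were not called in any comparison. Sema3a, a repellent for motor and sensory axons that binds neuropilin-1, averaged 8.43 ± 0.32 in PAX3-FKHR GFP+, 8.17 ± 0.15 in control GFP+ and 8.28 ± 0.06 in GFP- cells. Sema3e, the ligand of Plxnd1, was at 3.23 ± 0.08 in PAX3-FKHR GFP+, 3.34 ± 0.23 in control GFP+ and 3.13 ± 0.19 in GFP- cells. Sema3d averaged 5.22 ± 0.80, Sema6a 5.71 ± 0.40 and Sema6d 7.58 ± 0.30 in PAX3-FKHR GFP+ cells, against 5.19 ± 0.75, 5.28 ± 0.57 and 7.35 ± 0.45 in control GFP+ cells. Sema3f was uneven on its brightest probe set, a type that may detect related transcripts, with 10.99, 10.68 and 8.96 on the control GFP+ arrays. On its second brightest probe set Sema3f fell by 1.22 in PAX3-FKHR GFP+ cells (adjusted p = 0.0178) and by 1.06 in control GFP+ cells (adjusted p = 0.0368) relative to GFP- cells.

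On the receptor side of the semaphorins, Plxna2 was higher and Nrp2 lower in both GFP+ groups than in GFP- cells, and Plxnd1 was higher in control GFP+ cells. Plxna2, which binds membrane semaphorins of class 6, was at 7.85, 8.35 and 8.02 in PAX3-FKHR GFP+ cells and 7.67, 7.53 and 7.62 in control GFP+ cells, against 6.83, 6.50 and 6.77 in GFP- cells. The 3 groups did not overlap. Plxna2 was higher than in GFP- cells by 1.37 in PAX3-FKHR GFP+ cells (adjusted p = 7.34e-04) and by 0.91 in control GFP+ cells (adjusted p = 0.00981), also without any 1 array. Plxnd1, the receptor for Sema3e and known from endothelium, was at 7.04, 7.39 and 6.91 in PAX3-FKHR GFP+ cells, 7.46, 8.20 and 7.65 in control GFP+ cells and 6.16, 6.89 and 7.13 in GFP- cells. In control GFP+ cells it was higher than in GFP- cells by 1.04 (adjusted p = 0.0498), a call lost with the arrays centred on their medians and without any 1 array but GFP- replicate 3 (adjusted p up to 0.14).

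Endothelial markers moved beside Plxnd1, with 15 of 15 above 0 in control GFP+ against GFP- cells and 1 of them called. Their mean log2 level was 5.96 to 7.01 on the control GFP+ arrays and 5.31 to 6.27 on the GFP- arrays, and their part in the Plxnd1 value was not tested. Nrp2, a co-receptor for secreted semaphorins, was at 8.57, 8.56 and 8.15 in PAX3-FKHR GFP+ cells and 8.30, 8.70 and 8.08 in control GFP+ cells, against 9.60, 9.40 and 9.41 in GFP- cells. It fell by 1.04 (adjusted p = 0.00721) and 1.11 (adjusted p = 0.00661) in PAX3-FKHR GFP+ and in control GFP+ cells, without overlap and also without any 1 array. Nrp1, the co-receptor shared with VEGF, averaged 8.55 ± 0.63 in PAX3-FKHR GFP+, 8.44 ± 0.57 in control GFP+ and 9.22 ± 0.22 in GFP- cells and was not called on its brightest probe set, while on its dimmest it fell by 1.34 (adjusted p = 0.0127) in PAX3-FKHR GFP+ and by 1.37 (adjusted p = 0.0136) in control GFP+ cells. Plxna1 and Plxna4 had log2 fold changes between -0.21 and 0.09 and were not called.

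**Figure D3:**
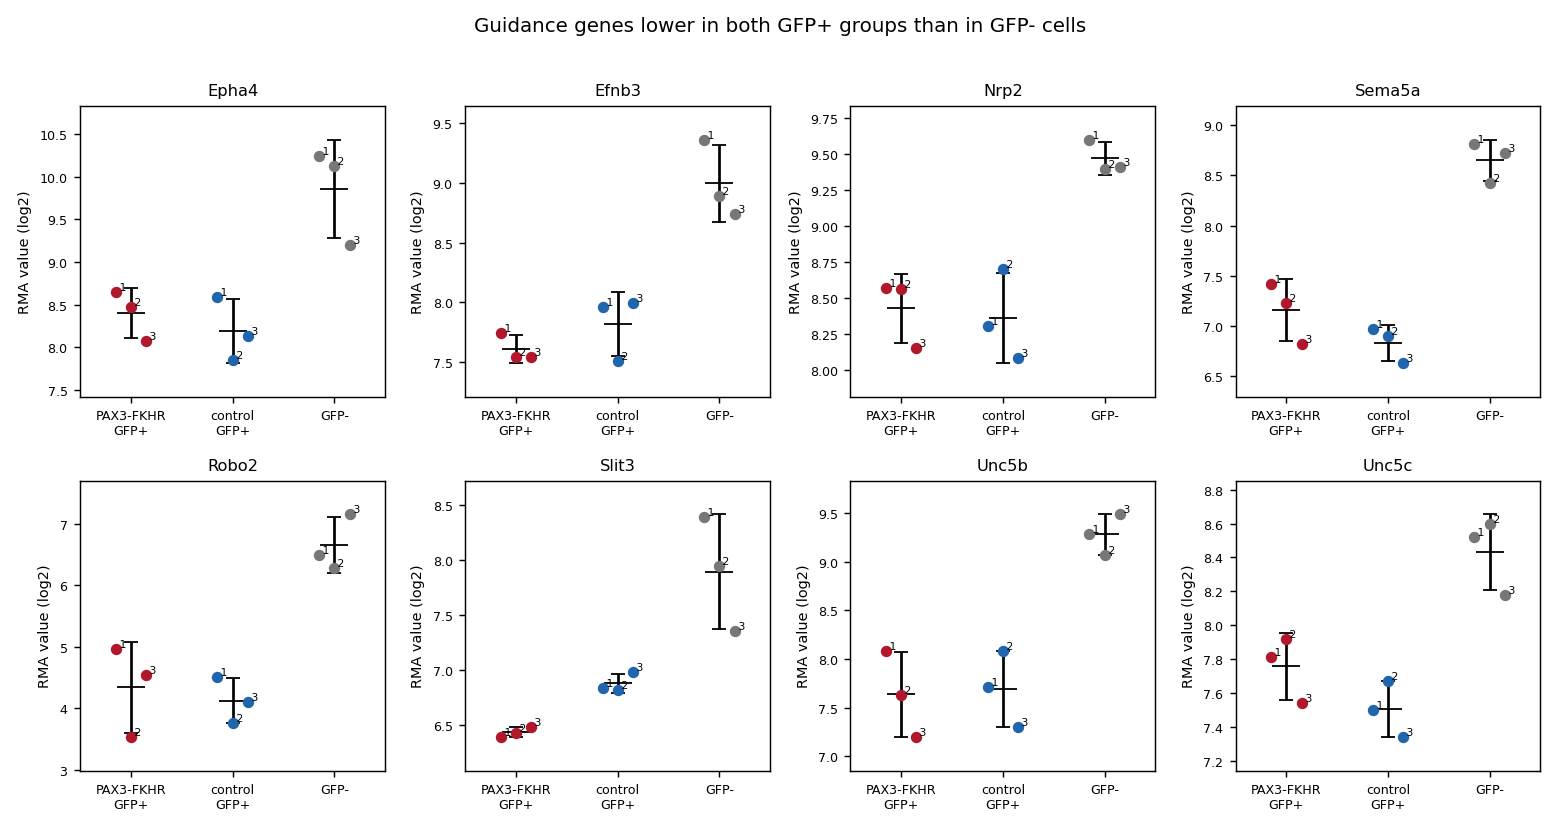
RMA values (log2, vertical axis, a scale of its own in each panel) of 8 genes called lower in both GFP+ groups than in GFP- cells, in the 3 groups, where points are arrays with their replicate number and bars give the mean and SD over 3 arrays. In every panel all 3 GFP- arrays sit above the 6 GFP+ arrays, for Robo2 between 6.29 and 7.16 against 3.53 to 4.97.

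The Slit ligands differed among themselves, with Slit1 higher in PAX3-FKHR GFP+, Slit2 higher in control GFP+ and Slit3 lower in both GFP+ groups than in GFP- cells. Slit1 was at 7.62, 7.81 and 8.37 in PAX3-FKHR GFP+ cells, 7.12, 6.82 and 7.51 in control GFP+ cells and 6.36, 6.39 and 6.04 in GFP- cells. The groups did not overlap. Slit1 was higher in PAX3-FKHR GFP+ than in GFP- cells by 1.67 (standard error 0.23, adjusted p = 0.00183), while in control GFP+ cells the difference of 0.88 (adjusted p = 0.0504) does not pass on this probe set. On its other probe set Slit1 was at 7.02, 6.87 and 7.69 in PAX3-FKHR GFP+ cells, 5.90, 5.69 and 5.90 in control GFP+ cells and 4.62, 4.53 and 4.85 in GFP- cells.

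On this other probe set the Slit1 groups again stood in 3 separate ranges, and all 3 comparisons were called. The log2 fold change was 1.36 in PAX3-FKHR GFP+ against control GFP+ cells (standard error 0.20, adjusted p = 0.0165), 1.16 in control GFP+ against GFP- cells (adjusted p = 0.00875) and 2.53 in PAX3-FKHR GFP+ against GFP- cells (adjusted p = 6.00e-05). The first of these calls ended without replicate 1 or 2 of the control cells (adjusted p up to 0.0657) and stood with the replicate number as a block (adjusted p = 0.0138). The study lists the other probe set, and not the brightest, among those of GFP+ cells of the limb, so the direction against GFP- cells is not independent evidence. On the brightest Slit1 probe set the difference with PAX3-FKHR was 0.79 (adjusted p = 0.339).

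Slit2 was at 8.54, 8.63 and 8.05 in PAX3-FKHR GFP+ cells, 8.64, 8.85 and 8.95 in control GFP+ cells and 7.81, 7.95 and 7.78 in GFP- cells. It was higher in control GFP+ than in GFP- cells by 0.97 (adjusted p = 0.00943), also without any 1 array, and the 0.56 of PAX3-FKHR GFP+ cells (adjusted p = 0.0848) does not pass. On its second brightest probe set Slit2 had the opposite sign, at -0.66 (adjusted p = 0.209) in control GFP+ against GFP- cells. Slit3 was at 6.39, 6.43 and 6.48 in PAX3-FKHR GFP+ cells and 6.84, 6.82 and 6.98 in control GFP+ cells, against 8.39, 7.94 and 7.35 in GFP- cells. The GFP- arrays were highest and the PAX3-FKHR arrays lowest, without overlap. Slit3 fell by 1.46 in PAX3-FKHR GFP+ cells (adjusted p = 0.00321) and by 1.01 in control GFP+ cells (adjusted p = 0.0241), and the control GFP+ call was lost without replicate 1 or 2 of either group (adjusted p up to 0.0781).

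Robo2, a Slit receptor gene, was lower in both GFP+ groups than in GFP- cells. It was at 4.97, 3.53 and 4.54 in PAX3-FKHR GFP+ cells and 4.51, 3.77 and 4.10 in control GFP+ cells, against 6.50, 6.29 and 7.16 in GFP- cells. Robo2 fell by 2.30 in PAX3-FKHR GFP+ cells (standard error 0.35, adjusted p = 0.00333) and by 2.53 in control GFP+ cells (standard error 0.35, adjusted p = 0.0028), and both calls stood whichever array was left out. The GFP+ values lie under the median of every array (5.08 to 5.13) and are not shown to be above background, so that these log2 differences are not read as folds of transcript. Robo1, which also codes for a Slit receptor, was at 8.43, 8.83 and 8.28 in PAX3-FKHR GFP+ cells, 7.91, 8.16 and 7.39 in control GFP+ cells and 8.30, 7.87 and 8.10 in GFP- cells. Its PAX3-FKHR arrays lay above its control GFP+ arrays, by 0.69 (adjusted p = 0.444), and it was not called in any comparison. Against GFP- cells the Robo1 difference was 0.43 (adjusted p = 0.331) in PAX3-FKHR GFP+ and -0.27 (adjusted p = 0.517) in control GFP+ cells. Robo3 and Robo4, from the list of other guidance genes, were at -0.29 and -0.03 in PAX3-FKHR GFP+ and at -0.03 and 0.26 in control GFP+ against GFP- cells and were not called.

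**Figure D4:**
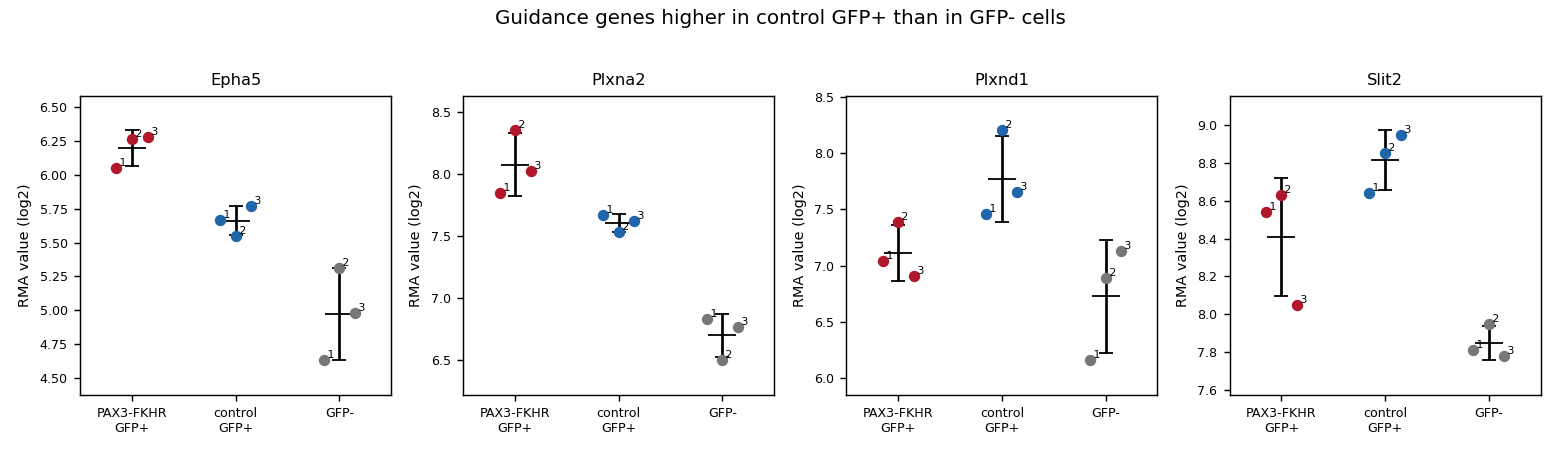
RMA values (log2, vertical axis, a scale of its own in each panel) of Epha5, Plxna2, Plxnd1 and Slit2 in the 3 groups, where points are arrays with their replicate number and bars give the mean and SD over 3 arrays. In each panel the 3 control GFP+ arrays sit above the 3 GFP- arrays, for Slit2 between 8.64 and 8.95 against 7.78 to 7.95.

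Among the netrin receptors Unc5b and Unc5c, whose proteins mediate repulsion by netrin-1, were lower in GFP+ cells. Unc5a and Unc5d, from the list of other guidance genes, were not called, with differences from GFP- cells of 0.33 and 0.26 in PAX3-FKHR GFP+ and of 0.19 and 0.08 in control GFP+ cells. Unc5b was at 8.08, 7.63 and 7.20 in PAX3-FKHR GFP+ cells and 7.71, 8.08 and 7.30 in control GFP+ cells, against 9.28, 9.07 and 9.49 in GFP- cells. It fell by 1.64 (adjusted p = 0.00348) and 1.58 (adjusted p = 0.00556) in PAX3-FKHR GFP+ and in control GFP+ cells. Unc5c was at 7.81, 7.92 and 7.54 in PAX3-FKHR GFP+ cells and 7.50, 7.67 and 7.34 in control GFP+ cells, against 8.52, 8.60 and 8.18 in GFP- cells. It fell by 0.67 (adjusted p = 0.0392) and 0.93 (adjusted p = 0.0105) in the same groups. No GFP- array overlapped a GFP+ array for either gene. The Unc5c call in PAX3-FKHR GFP+ cells was lost without any 1 array but GFP- replicate 3 (adjusted p up to 0.14), and the other 3 calls stood without any 1 array. On their other, dimmer probe sets neither gene was called. There Unc5b was at -0.47 (adjusted p = 0.157) in PAX3-FKHR GFP+ and -0.34 (adjusted p = 0.292) in control GFP+ cells. Unc5c was at -0.31 (adjusted p = 0.479) and -0.58 (adjusted p = 0.147), with overlapping arrays.

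Dcc, the receptor through which netrin-1 attracts axons, gave different results by probe set. On the brightest it averaged 5.26 ± 0.11 in PAX3-FKHR GFP+, 5.33 ± 0.19 in control GFP+ and 5.21 ± 0.08 in GFP- cells and was not called. On another, dimmer probe set Dcc was at 3.74, 3.79 and 3.60 in PAX3-FKHR GFP+ cells, against 4.70, 4.55 and 5.09 in control GFP+ cells and 3.27, 3.40 and 3.79 in GFP- cells, so that the control GFP+ arrays stood above all others, at levels not shown to be above background. There it fell by 1.07 with PAX3-FKHR (standard error 0.16, adjusted p = 0.018) and was higher in control GFP+ than in GFP- cells by 1.30 (standard error 0.16, adjusted p = 0.00157). The PAX3-FKHR call was lost without any 1 PAX3-FKHR GFP+ array or control GFP+ replicate 1 (adjusted p up to 0.0906) and stood with the replicate number as a block (adjusted p = 0.0242). The study lists this probe set too among those of GFP+ cells of the limb. On its dimmest probe set Dcc was also higher in control GFP+ than in GFP- cells, by 0.89 (adjusted p = 0.0141). With PAX3-FKHR it was at -0.80 there (adjusted p = 0.112), without overlap and again at levels not shown to be above background. Neuronal markers moved with the GFP sort, with 4 of 11 called higher in control GFP+ cells and mean log2 levels of 6.16 to 6.29 in control GFP+ against 5.04 to 5.10 in GFP- cells. So did markers of neural crest and glia, with 4 of 7 called higher and 2 lower and levels of 6.76 to 7.83 in control GFP+ against 6.02 to 6.26 in GFP- cells. The part of either in the Dcc and Slit values was not tested.

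Ntn1, which codes for netrin-1, was at 7.61, 8.11 and 7.97 in PAX3-FKHR GFP+ cells, 7.10, 7.42 and 5.34 in control GFP+ cells and 7.82, 7.47 and 7.19 in GFP- cells. Control GFP+ replicate 3 was far below the other control arrays, and no comparison was called. Flrt3 codes for a membrane protein that binds Unc5 receptors and latrophilins. It was at 8.85, 8.65 and 8.63 in PAX3-FKHR GFP+ cells, against 9.49, 9.60 and 9.34 in control GFP+ cells and 8.90, 8.65 and 8.79 in GFP- cells. The control GFP+ arrays stood above all others, while PAX3-FKHR GFP+ and GFP- arrays overlapped.

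Flrt3 fell by 0.77 with PAX3-FKHR (standard error 0.13, adjusted p = 0.0381) and was higher in control GFP+ than in GFP- cells by 0.70 (standard error 0.13, adjusted p = 0.0137). The first call was lost without any 1 array but control GFP+ replicate 3 (adjusted p up to 0.183) and with the replicate number as a block (adjusted p = 0.081 over all arrays and 0.0549 on the 6 compared). The second was lost without replicate 2 of either group (adjusted p up to 0.0586). On its other probe set Flrt3 was at -0.91 with PAX3-FKHR (adjusted p = 0.0736). Flrt2, its relative, was at 9.77, 9.74 and 9.49 in PAX3-FKHR GFP+ cells, 9.10, 9.25 and 8.32 in control GFP+ cells and 8.72, 8.58 and 9.46 in GFP- cells. Its PAX3-FKHR arrays lay above all others, by 0.77 over the control GFP+ arrays (adjusted p = 0.538), and it was not called.

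Guidance receptors and ligands outside these 42 genes were 40 in number and all measured. With PAX3-FKHR 9 of them had an unadjusted p under 0.05, as had 1522 of all 18193 genes. Limma called 1 higher and 0 lower there, which is 2.5%, against 0.813% of all genes. The 1 was Flrt1, the third FLRT gene, at 6.90, 7.71 and 7.81 in PAX3-FKHR GFP+ cells, against 5.97, 6.15 and 5.32 in control GFP+ cells and 5.23, 5.12 and 5.29 in GFP- cells. Its log2 fold change with PAX3-FKHR was 1.66 (standard error 0.27, adjusted p = 0.0229), on a probe set that the study picked on these arrays, and 0 of the 40 were called when replicate 2 or 3 of the PAX3-FKHR cells or replicate 1 or 3 of the control cells was left out. In control GFP+ against GFP- cells Ntn5, a netrin gene, was higher by 0.76 (adjusted p = 0.0381) and the latrophilin gene Adgrl1, whose product binds FLRT proteins, fell by 0.99 (adjusted p = 0.0124). Calls made up 5% of this list there, close to the 4.72% of all genes. In PAX3-FKHR GFP+ against GFP- cells Flrt1, Ntn4 and Ntn5 were called higher, by 2.26, 0.56 and 1.31 (adjusted p = 6.62e-04, 0.0365 and 0.00216), and Ephb6, Plxnb2 and Adgrl1 lower, with log2 fold changes of -0.74, -0.71 and -0.76 (adjusted p = 0.0384, 0.0326 and 0.0364). Calls made up 15% of the list in this comparison, against 6.69% of all genes.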

How the data were processed

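RNA of cells sorted by GFP from pooled E10.5 forelimb buds was amplified in 2 cycles and hybridized to Affymetrix Mouse430_2 arrays. The authors deposited log2 values per probe set made with RMA, which corrects the background, brings the arrays to a common distribution and summarises the probes of a set. Its version is not given in the sources used here. RMA shrinks low values together, and detection calls were not used here, so that low levels may be background. After 64 array controls were set aside, 45037 probe sets on 9 arrays, 3 per group, were fitted with limma 3.58.1 in R 4.3.3 as group means with an intensity trend. Gene symbols came from GEO's platform annotation, with 34945 probe sets of 1 symbol, 932 of several and 9160 of none.

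Calls needed a Benjamini-Hochberg adjusted p under 0.05 over all probe sets and a log2 fold change of 0.5 or more in size. The members and lists were chosen with earlier results of these data known. Every member is named, with values on every array for those called on their brightest probe set and for some others, and up to 8 called genes per comparison are named of the list of other guidance genes. After removal of group means, arrays of equal number in the PAX3-FKHR and control groups correlated by 0.16, 0.47 and 0.29, so that the numbers of the titles were tried as a block. The labels state no pairing, and the main fit does not use it. Scaling, variance model, array weights, arrays fitted, fold threshold, a filter on low values, the choice of probe set, the methods' local pooled error test and leaving out each array were the other alternatives. Fits were also run on simulated data with planted shifts and independent noise. These data held no pairing and no array of poor quality, so that they do not test the fits under either. With 3 arrays per group, their number limits the precision.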

Additional observations from a re-analysis of the deposited data

How the results depend on the processing

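With PAX3-FKHR against control GFP+ cells, the guidance genes called higher and lower numbered 1 and 1, and these counts moved with most choices. Genes called lower numbered 0 with the arrays quantile normalized again, 3 with array weights, 2 with a replicate block on the 6 arrays, 0 at a log2 fold change of at least 1, 3 with low values filtered out (23557 probe sets kept), 4 with probe sets averaged per gene and 2 with the local pooled error test, and those called higher 0 with the replicate block on all arrays, 2 with probe sets averaged and 0 with the local pooled error test. On only the 6 arrays compared both counts were 0. Leaving out 1 array gave 0 called higher in every case and 0 to 1 called lower. Epha3 and Sema3c made up the added lower calls with array weights, with the filter and with the block on 6 arrays. They were the only lower calls with that block and with the local pooled error test, where Flrt3 was not called.

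In control GFP+ against GFP- cells, genes called higher numbered 3 with the replicate block on the 6 arrays compared, 2 at a log2 fold change of at least 1 and 2 with the local pooled error test, against 6. Leaving out 1 array gave 3 to 5 called higher and 7 to 9 lower there, and 3 to 5 higher and 6 to 10 lower in PAX3-FKHR GFP+ against GFP- cells. The numbers pair no GFP- array (correlations of 0.07, 0.07 and -0.20 with control GFP+ and -0.24, 0.15 and -0.29 with PAX3-FKHR GFP+ arrays), and with the block over all arrays the calls against GFP- cells numbered 6 and 9 for control GFP+ and 4 and 11 for PAX3-FKHR GFP+ cells. The single calls tallied next are calls and not the 41 genes. Beside those on brightest probe sets they include dimmer probe sets of Epha3, Epha7, Slit1 and Dcc, taken only where the main fit called them. Over the 41 single calls the 521 other fits kept the call 465 times and lost it 56 times, and 162 of 246 fits without 1 array kept it. In none of them did a direction reverse. Settings that changed only the spread estimate, the replicate block or the threshold left the fold change as it was, so that they could not reverse a direction. With no fold threshold every call is kept by construction. Part of these tallies was thus fixed in advance. The Slit2 probe set of opposite sign is not among these calls. Where no cause is given by the setting itself, the cause was not tested.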

Other observations

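Intracellular partners of guidance receptors were measured for 28 of 29 listed genes. With PAX3-FKHR, limma called 0 of them, against 0.813% of all genes, and 8 had an unadjusted p under 0.05. The local pooled error test called 1 higher. In control GFP+ against GFP- cells 3 were called higher and 1 lower, which is 14.3%, against 4.72% of all genes. Dpysl3, a collapsin response mediator that acts below semaphorin receptors, was at 9.33, 9.68 and 8.74 in control GFP+ cells, against 7.38, 7.50 and 7.87 in GFP- cells, higher by 1.67 (adjusted p = 0.00532). Fyn, a kinase used by several guidance receptors, averaged 8.92 ± 0.17 in control GFP+ cells and 8.09 ± 0.13 in GFP- cells (SD, n = 3 each), higher by 0.83 (adjusted p = 0.0101). Crmp1, of the family of Dpysl3, was higher by 0.75 (adjusted p = 0.0307). Chn1, a Rac regulator below Epha4, fell by 0.67 (adjusted p = 0.0473), a call lost without any 1 array but GFP- replicate 3. In PAX3-FKHR GFP+ against GFP- cells 5 were called higher and 1 lower, which is 21.4%, against 6.69% of all genes. Among them were Fyn at 1.37 (adjusted p = 4.68e-04), Chn2 at 1.97 (adjusted p = 0.0144) and Ablim3 at 1.62 (adjusted p = 0.00865). Probe sets of Chn2 and Ablim3 are on the lists that the study drew from these arrays.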
